A study of Mus musculus with 6 samples.

Results

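Motor neurons were compared with the remaining cells of the embryonic mouse spinal cord on the knockout-labelled arrays alone. Of the 6 arrays of the study, 3 carry the label mir-17~92 -/- and enter this comparison: 2 of GFP-on cells, taken as motor neurons, and 1 of GFP-off cells. The cells came from embryos at E12.5, in mid-gestation, that also carried Hb9::GFP, as did the embryos of the other 3 arrays, which are labelled WT. Hb9::GFP is a transgene in which Hb9 regulatory sequence drives GFP in motor neurons, and the spinal cords were dissociated with trypsin and sorted by flow cytometry. Both fractions therefore share the knockout label and the reporter, and differ in the sort. Each RNA was read in 1 colour (Cy3) on an Agilent mouse array.

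Spinal motor neurons send axons out of the central nervous system to muscle, and they release acetylcholine there. They arise from ventral progenitors, leave the cell cycle, and are specified by LIM-homeodomain factors such as Isl1, Isl2, Lhx3 and Lhx4 together with Hb9 itself, the product of Mnx1. The GFP-off fraction is defined only by the lack of GFP. From a dissected cord it can include dividing progenitors, interneurons, glial precursors, vessels, blood and adhering tissue. The deleted cluster is a polycistron of microRNAs, short RNAs that pair through a seed near their start with target messages and lower their output.

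The 6 mature products of the cluster are shown because every array of this comparison is labelled as lacking them. In the RefSeq sequences (GRCm38.p6) they lie on the plus strand between chr14:115043684-115043706 for the first and chr14:115044476-115044496 for the last, within the transcribed host gene Mir17hg. Capitals mark the seed, bases 2 to 8.
miR-17-5p: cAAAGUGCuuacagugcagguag
miR-18a-5p: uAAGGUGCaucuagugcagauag
miR-19a-3p: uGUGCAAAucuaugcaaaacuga
miR-20a-5p: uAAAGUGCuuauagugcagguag
miR-19b-3p: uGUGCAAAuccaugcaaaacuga
miR-92a-3p: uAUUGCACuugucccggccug
The 6 products carry 4 seeds. miR-17-5p and miR-20a-5p share AAAGUGC, miR-19a-3p and miR-19b-3p share GUGCAAA, and miR-18a-5p and miR-92a-3p have AAGGUGC and AUUGCAC.

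The knockout-labelled motor neuron arrays differed in brightness. Their processed signals had a 75th percentile of 59.9 on the first and 506 on the second, against 550 on the GFP-off array, and 44.0%, 60.0% and 62.3% of spots cleared background. All values below are log2 signals relative to that percentile of the same array, so 0 is the percentile itself and a difference of 1 is a doubling. Both motor neuron arrays lay in row 1 of the slide and the GFP-off array in row 2, so row and cell type cannot be told apart. Nothing in the labels says whether the motor neuron arrays came from separate embryos, so the spread between them may be technical. The first motor neuron array and the GFP-off array carry a common tag in their descriptions, whose meaning is not stated. In sorted bulk RNA, fewer cells of a type and less RNA per cell cannot be told apart.

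The targeted locus was read first. Mir17hg, the host gene of the cluster, was at 4.55 and 4.78 on the motor neuron arrays and at 4.62 on the GFP-off array, all labelled as knockouts. On the WT-labelled arrays it was at -2.38 and 2.73 in motor neurons and at -1.23 in GFP-off cells. The host transcript was thus higher on each array labelled knockout than on each array labelled wild type, which goes against the genotype labels should the deletion cover the probe. The position of the probe relative to the deletion was not established, and "knockout-labelled" is used throughout for that reason. Within the knockout label the motor neuron and GFP-off values differed by 0.05, less than the gap between the motor neuron arrays.

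No gene passed the adjusted test. With limma's moderated test over 34231 probes well above background on both motor neuron arrays or on the GFP-off array, 0 were called in either direction after Benjamini-Hochberg adjustment at 0.05 (0% of probes and of the 15125 genes). At an unadjusted p under 0.05, 1678 probes were higher (4.9%) and 1746 lower (5.1%) in motor neurons, and per gene 999 were higher (6.6%) and 679 lower (4.49%). Restricted to probes above background on all 3 arrays, the same test called 466 of 12392 genes higher (3.76%) and 84 lower (0.678%). This count rests on the settings: on the same probes it was 0 with quantile normalization, 18 with another background correction, and 12 in a model of all 4 groups, which gave 12 without the first motor neuron array and 19 without the second. Adjusted p-values given below come from this restricted fit unless another is named. For 1 gene, an exact permutation over 2 motor neuron arrays and 1 GFP-off array gives no two-sided p below 0.333.

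Genes are therefore described mainly by size. A gene was counted as higher or lower by size when both motor neuron arrays differed from the GFP-off array by over 1 log2 in the same direction. By this rule, 1110 of the 12392 genes were higher (8.96%) and 451 lower (3.64%). Counts by size in the gene lists below are to be read beside these shares, and counts called beside 3.76% and 0.678%. Taken against the GFP-off array alone, the first motor neuron array had 1691 higher and 1404 lower, and the second 1376 and 533. Without any limit of size, both motor neuron arrays lay above the GFP-off array for 4468 genes (36.1%) and below it for 4973 (40.1%). The motor neuron arrays differed from each other by over 1 log2 for 929 genes (7.5%). Genes past the size limit were more often dim: of 4 equal bins by mean level, the dimmest had 404 of 3098 genes higher by size and the brightest 183 of 3098.

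The sorted fraction carried the transmitter genes of motor neurons. Of the 8 measured genes of acetylcholine synthesis, release and breakdown, 6 were higher by size and 0 lower, 4 were called higher, and their median difference was 1.77, against -0.03 over all genes. Chat, which encodes the enzyme that makes acetylcholine, was at -0.47 and -0.79 on the motor neuron arrays and at -3.59 on the GFP-off array, a difference of 2.95 (SE 0.53, n = 2 and 1; limma adjusted p = 0.268 over all tested probes and 0.00719 in the restricted fit). Slc18a3, the vesicular acetylcholine transporter, was at 1.82 and 1.5 against -2.09. It differed by 3.75 (SE 0.53; limma adjusted p = 0.00286). For both genes the motor neuron arrays lay close together and far above the GFP-off array.

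The other members of the cholinergic list varied. Slc10a4, a synaptic vesicle protein of cholinergic and monoaminergic neurons, was at -0.29 and -0.67 against -3.31, and was called. Prima1, which anchors acetylcholinesterase in the membrane, was at 0.07 and 0.32 against -1.79, and was called. Slc5a7, the choline transporter, was at -0.94 and -1.04 against -2.24, and its other probe was higher by 1.64. Ache, the esterase itself, was at -2.12 and -2.64 against -3.93. Neither Slc5a7 (limma adjusted p = 0.213) nor Ache (0.115) passed the restricted test. Chka and Colq, which act in choline metabolism and in anchoring the esterase, differed by 0.26 and -0.07.

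**Figure D1:**
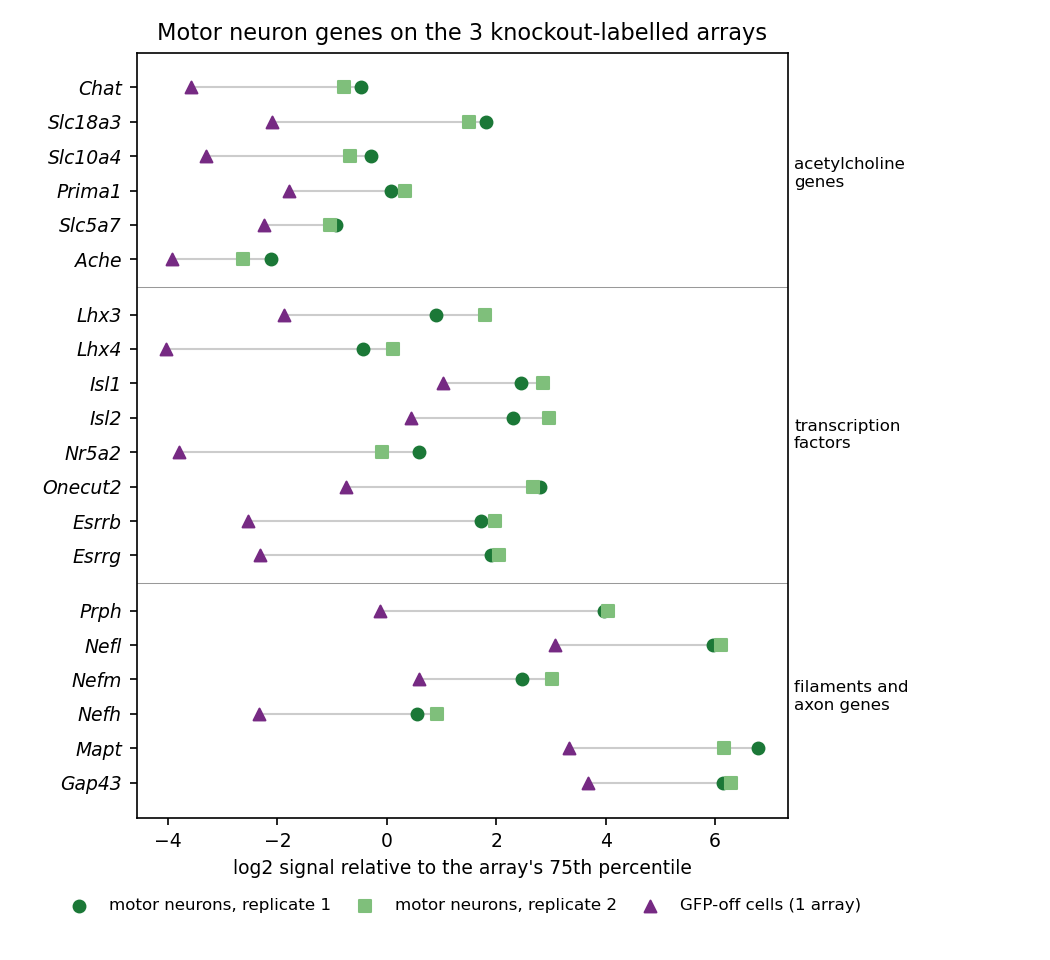
Log2 signal relative to the 75th percentile of each array for cholinergic genes, transcription factors and neurofilament or axon genes; each gene has 1 point per array, joined by a grey line over their range. In all 20 genes shown both motor neuron arrays lie above the GFP-off array, with Chat at -0.47 and -0.79 against -3.59 and Prph at 3.97 and 4.04 against -0.13. The genes were picked from longer lists, and members that differed little or were lower, such as Colq (-0.07) and Ebf2 (-1.19), are not shown.

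Chat and Slc18a3 form a single cholinergic locus, with Slc18a3 inside the first intron of Chat, and their upstream sequences are shown since both were called higher. Each is the 250 bases before the RefSeq start (GRCm38.p6, minus strand), chr14:32465910-32466159 for Chat and chr14:32464851-32465100 for Slc18a3, written in the direction of the gene with matches to CCAAT in capitals.
Chat: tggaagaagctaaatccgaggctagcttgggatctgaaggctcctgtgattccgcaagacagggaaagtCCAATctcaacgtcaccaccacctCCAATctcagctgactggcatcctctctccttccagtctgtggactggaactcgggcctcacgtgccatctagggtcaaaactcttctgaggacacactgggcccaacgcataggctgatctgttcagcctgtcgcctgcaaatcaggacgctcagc
Slc18a3: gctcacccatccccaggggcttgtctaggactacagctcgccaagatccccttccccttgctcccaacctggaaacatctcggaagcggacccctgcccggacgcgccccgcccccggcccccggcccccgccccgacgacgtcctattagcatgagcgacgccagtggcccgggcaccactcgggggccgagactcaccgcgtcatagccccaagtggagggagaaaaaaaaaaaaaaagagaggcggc
A search for CCAAT, for GATAA and for the homeodomain core TAATTA, on both strands, found 2 CCAAT matches before Chat and no match before Slc18a3. TAATTA and GATAA can share letters. TAATTA was in 0 of the 7 cholinergic genes with a promoter entry and in 0 of 14 motor neuron transcription factors, against 4.9% of all 27025 promoters and 2.2% of those of the genes above background on all 3 arrays. Such matches describe letters in a window and not binding.

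LIM-homeodomain and other motor neuron factors were higher. Of 18 motor neuron transcription factors above background on all 3 arrays, 9 were higher by size and 0 lower, 8 were called higher, and the median difference was 1.38. Mnx1 had no matched probe. Lhx3, a LIM factor of medial motor neurons and a ventral interneuron class, was at 0.90 and 1.79 against -1.87, a difference of 3.22 (SE 0.61, limma adjusted p = 0.00681). Lhx4, its close relative, was at -0.43 and 0.12 against -4.04 and differed by 3.88 (limma adjusted p = 0.00268). The motor neuron arrays were apart by less than a log2 for both genes, and the GFP-off array was far below.

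The Islet genes showed smaller differences. Isl1, made in nearly all newborn motor neurons and also in dorsal interneurons and sensory neurons, was at 2.46 and 2.86 in motor neurons and at 1.04 in GFP-off cells. It differed by 1.62 and did not pass the restricted test (limma adjusted p = 0.0924). Isl2, a second Islet factor, was at 2.31 and 2.96 against 0.45 and was called (2.18, limma adjusted p = 0.0286). Neither group's values overlapped for either gene.

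Larger differences lay in factors that act after motor neuron birth. Esrrb, an orphan nuclear receptor, was at 1.73 and 1.97 against -2.53. Esrrg, its paralogue, known from a motor neuron class that innervates muscle spindles, was at 1.91 and 2.05 against -2.31, and its second probe was higher by 4.25. Nr5a2, another nuclear receptor, was at 0.59 and -0.09 against -3.81. Onecut2, a cut-homeodomain factor of newborn motor neurons, was at 2.80 and 2.67 against -0.74, and Myt1l, a pan-neuronal zinc finger factor, differed by 2.61. All 5 were called. The Ebf factors, which act in early neuronal differentiation, were mixed, with Ebf1 at 0.79, Ebf3 at -0.48 and Ebf2 at -1.19, and Tshz1, Lmo4 and Zfhx4 lay between -0.02 and 0.20. None of these 6 passed the test.

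Genes that mark motor columns and pools were divided. Of 14 above background on all 3 arrays, 5 were higher and 2 lower by size, 4 were called higher, and the median difference was 0.37. Pou3f1, a POU factor of phrenic and other brachial pools, was at 3.03 and 3.42 against 0.15. Cartpt, a neuropeptide precursor of autonomic preganglionic neurons, was at 1.62 and 2.02 against -1.06, Sst, encoding somatostatin, at 3.84 and 4.04 against 1.69, and Cpne4 at -0.35 and -0.27 against -2.64. These 4 were called and none overlapped. Foxp1, which with Hox proteins specifies limb-level columns, was at 3.93 and 4.26 against 4.69 and so was not higher. Aldh1a2, the retinoic acid enzyme of limb-level motor neurons and of meninges, differed by -0.23, and Fgfr1, a receptor of medial column cells, by -1.32, with 1 of its other 2 probes higher by 0.44. Gdnf, a muscle- and mesenchyme-derived survival factor, differed by -1.55. None of the lower differences passed the test.

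Hox genes, whose proteins give motor neurons their position along the cord, differed by paralogue number on the knockout-labelled arrays. Of 34 above background on all 3 arrays, 6 were higher by size and 0 lower, 3 were called higher, and the median was 0.46. The bands that follow were drawn after the values were seen. Paralogues 1 to 4, expressed in hindbrain and upper cord, had a median difference of -0.03 over 10 genes, and paralogues 5 to 8 of 0.14 over 11. Paralogues 9 to 11, of thoracic and lumbar levels, were higher on both motor neuron arrays in 10 of 10 genes, with differences from 0.54 to 2.28 and a median of 1.34, and held all 6 genes past the size limit. Hoxc11 was at 2.68 and 3.32 against 0.72, Hoxd10 at 0.81 and 1.36 against -1.17, and Hoxc10 at 3.10 and 2.29 against 0.67. These 3 were the called genes. The 3 genes of paralogues 12 and 13 had a median of -0.40, and Hoxd13 was at -2.02 and 0.03 against 0.59, with the motor neuron arrays far apart. Under the WT label, the median over Hox genes above background on all 6 arrays was -0.43, against 0.54 for the same 31 genes here. Over all genes above background on all 6 arrays the medians were -0.22 and -0.02. The bands did not hold alike under the WT label. Of paralogues 9 to 11, Hoxb9 (-0.75), Hoxc9 (-0.67) and Hoxd9 (-0.13) were lower there and the others higher. Of paralogues 12 and 13, Hoxd12 (2.40), Hoxa13 (4.28) and Hoxd13 (1.09) were higher there. Hoxc13, above background on the motor neuron arrays only, is not in the bands.

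**Figure D2:**
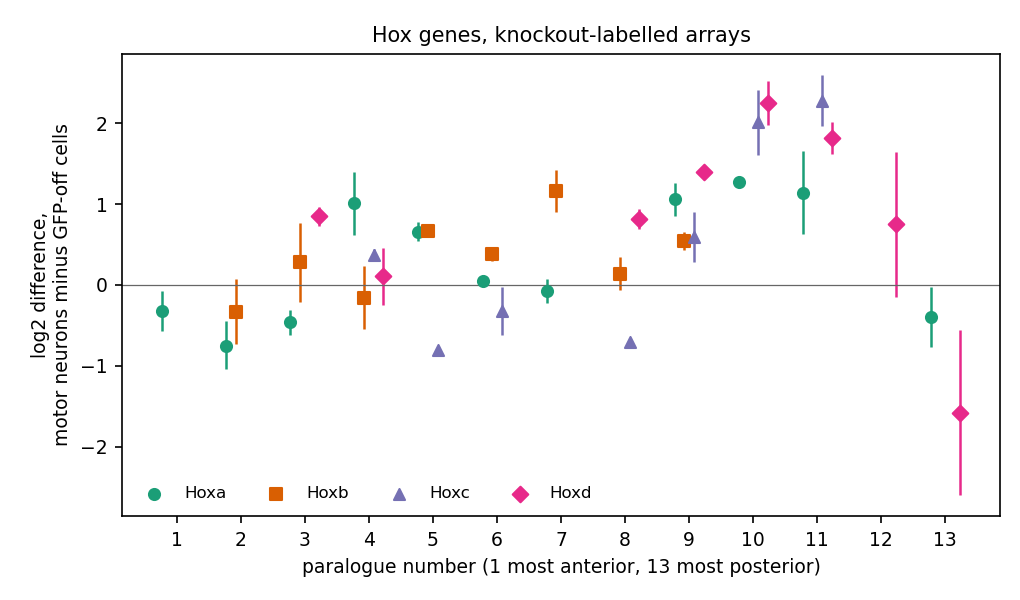
Log2 difference of each Hox gene by paralogue number, colours and symbols for the 4 clusters; points are the mean of 2 motor neuron arrays minus the GFP-off array and lines run between the differences of the single arrays. All 10 genes of paralogues 9 to 11 lie above 0, from 0.54 to 2.28, and the other 24 lie on both sides of 0.

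Neurofilament and axon growth genes showed the highest median of the lists described here. All 22 were above background on all 3 arrays and higher on both motor neuron arrays, 20 were higher by size, 13 were called, and the median was 2.34. Sncg, encoding gamma-synuclein, was at 5.73 and 5.83 against 1.35, a difference of 4.44 (SE 0.52, limma adjusted p = 0.000982). Prph, the intermediate filament peripherin of neurons with axons outside the central nervous system, was at 3.97 and 4.04 against -0.13. It differed by 4.13 (limma adjusted p = 0.00121). The spread between the motor neuron arrays was small beside both differences.

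The neurofilament subunits followed. Nefl, the light chain, was at 5.97 and 6.10 against 3.08, Nefm, the medium chain, at 2.46 and 3.02 against 0.58, and Nefh, the heavy chain, at 0.56 and 0.92 against -2.34. Ina, encoding alpha-internexin, differed by 2.72, and all 4 were called. Mapt, which encodes the axonal microtubule protein tau, was at 6.78 and 6.16 against 3.33 and Chl1, an adhesion molecule, at 4.60 and 4.68 against 1.53. Gap43 and Stmn2, both growth cone proteins, differed by 2.54 and 2.56 and were called. General neuronal genes varied. Stmn3, a stathmin of neurons, was at 6.47 and 6.24 against 3.35 and Elavl4, a neuronal RNA-binding protein, at 4.58 and 4.48 against 2.02, and both were called. Elavl3, a relative of Elavl4, differed by 1.86 and was called too. Tubb3, neuronal tubulin, differed by 1.63 and Dcx, doublecortin, by 1.82, neither called (limma adjusted p = 0.0866 and 0.0542). Map1b was at 2.16 and 3.52 against 1.83, so its motor neuron arrays were over a log2 apart. Its second probe was higher by 2.58 and past the size limit on both arrays.

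Genes of synaptic vesicles and release were mostly higher. Of 24, 16 were higher by size and 0 lower, 10 were called, and the median was 1.54. Syn1, a vesicle phosphoprotein, was at 4.08 and 3.90 against 0.53. Cplx1, a clamp of vesicle fusion, was at 1.99 and 1.95 against -1.42, and Syt4, a synaptotagmin, at 1.61 and 1.71 against -1.51. Syt10, another synaptotagmin, was at 3.25 and 5.67 against 0.15, with the widest gap between the motor neuron arrays among the called genes named here. Syn2 (2.62) and Syt1 (2.05) were also called. Stx1a, a syntaxin, differed by 0.19, and Agrn, which encodes agrin, the nerve-derived organiser of the neuromuscular junction, was at 6.42 and 6.35 against 5.89. Snap25 was at 7.46 and 5.28 against 5.16, a difference carried by the first array.

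Receptors of trophic factors differed among themselves, also within a ligand family. Of 15 measured, 5 were higher and 2 lower by size, 4 were called higher, and the median was 0.37. Ret, the signalling receptor for the GDNF family, was at 0.34 and 1.03 against -2.86, a difference of 3.54 (limma adjusted p = 0.00421). Its partners did not share a direction. Gfra3 differed by 2.05 and was called, and Gfra2 by 0.98 and Gfra1 by 0.76. Gfra4, the partner that binds persephin, was at 4.17 and 5.23 against 6.29, lower by size but not called (limma adjusted p = 0.144). Its other 2 probes differed by -0.59 and -0.43. Ntrk3, the receptor of neurotrophin-3, was at 2.71 and 2.25 against 0.16 and was called, but 2 of its 4 probes differed by -0.17 and 0.10. Ntrk2, the receptor of BDNF, was at 1.52 and 1.63 against 2.70, yet its probes disagreed and a second one was at 0.35 and 0.53 against -1.83. The cytokine receptors Lifr, Cntfr and Il6st lay between -0.58 and 0.22.

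Channel genes of excitability were mostly higher. Of 23 voltage-gated channel genes, 9 were higher and 1 lower by size, 5 were called higher, and the median was 0.97. Kcnma1, a calcium-activated potassium channel, was at 1.16 and 0.70 against -1.59, and Kcna1, a delayed rectifier, at 0.22 and 0.01 against -2.36. Scn3a, the embryonic sodium channel, differed by 2.11 and Kcnc1 by 1.97, and these 4 were called. Cacna1g, a T-type calcium channel, was lower by size, at 1.75 and 2.22 against 3.40, and was not called.

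Transmitter receptors were higher as a list, and named members covered all main classes. Of 26, 19 were higher by size and 0 lower, 12 were called, and the median was 1.84. Glra2, a glycine receptor subunit of embryonic neurons, was at 0.18 and 0.23 against -2.82, and Gabrb2, a GABA receptor subunit, at 1.02 and 0.82 against -1.66. Among glutamate receptors, Grm5 differed by 2.57, Grin1 by 2.36, Grik2 by 2.26 and Gria4 by 2.17, and the neuronal nicotinic subunits Chrna3 and Chrna4 by 2.37 and 2.23. All of these were called. The second probe of Grm5 went the other way, at -2.43 and -2.68 against -1.95, so its direction depends on the probe.

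Axon guidance genes did not separate the fractions as a list. Of 44 receptors and ligands, 6 were higher and 3 lower by size, 1 was called, and the median was 0.04. The called gene was Unc5a, a netrin receptor, at 2.90 and 2.94 against 0.82. Plxna4, a semaphorin receptor, differed by 1.63, Robo2, a Slit receptor, by 1.55, and the ligand Slit1 by 1.23. Epha4, which steers limb-innervating axons, was at 1.08 and 1.45 against 1.56. On the lower side lay the chemokine Cxcl12 (-1.53) and the semaphorin Sema5a (-1.29), neither called. Dcc, the netrin receptor of commissural axons, was at 7.68 and 7.88 against 7.45 on its brightest probe, and its other 2 probes were higher by 1.05 and 1.47.

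Cadherins, which sort motor neurons into pools, had a median of 0.94 over 15 genes, with 5 higher by size and 2 called. Cdh22 was at 1.70 and 1.75 against -1.0 and Cdh9 at -1.80 and -1.68 against -4.07, and both were called. Cdh7, at -2.03 and -2.08, was above background on the motor neuron arrays only, at least 6.86-fold higher, and is not in these counts. Cdh11, a cadherin of mesenchyme, was at 1.22 and 1.97 against 2.72.

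Many genes of other neurons were also higher on the GFP-on arrays. Of 13 transcription factors of ventral interneurons, 7 were higher by size and 0 lower, 5 were called, and the median was 1.56. Pax8, of inhibitory interneurons, was at 2.72 and 2.77 against -0.39. Evx1, which specifies commissural neurons, was at 0.44 and 0.81 against -2.19, and Nr4a2 differed by 2.93. Of 12 dorsal interneuron factors, 8 were higher by size and 0 lower, 6 were called, and the median was 1.85. Dmbx1 was at 0.11 and -0.39 against -4.66, a difference of 4.52, Pou4f2 at 1.11 and 1.99 against -1.60, and Bhlhe22 at 0.12 and 0.53 against -2.51. In each of these genes both motor neuron arrays lay above the GFP-off array. Among other counted members, Wt1 (-1.12) was lower on both, and for Foxp4 (-0.16) and Lmx1b (-0.355) the motor neuron arrays straddled the GFP-off value. En1 (0.27), Pax2 (0.36), Sim1 (-0.23), Lbx1 (-0.54), Gbx1 (-0.99) and Ptf1a (0.40) were not above background on the first motor neuron array and are not counted. Dmrt3, above background on the motor neuron arrays only and at least 6.34-fold higher, is not counted either.

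Genes of transmitters other than acetylcholine were higher too. Of 7, 5 were higher by size and 0 lower, 3 were called, and the median was 1.66. Gad1, which makes GABA, was at 1.29 and 1.33 against -1.12, and Slc32a1, the vesicular transporter of GABA and glycine, at 4.56 and 4.99 against 2.85. Slc17a6, the vesicular glutamate transporter of many spinal neurons, differed by 1.66 and was not called. Slc6a9, a glycine transporter of glia and glycinergic cells, differed by -0.88. The summed level of the 7 genes was 5.26 and 5.60 against 4.17. Under the WT label the 6 genes above background on all 6 arrays had a median of -0.12, against 1.80 here. All genes above background on all 6 arrays had medians of -0.22 and -0.02.

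Genes of the neural crest and Schwann lineage were higher as well. All 14 were higher on both motor neuron arrays, 7 by size, 4 were called, the median was 1.5, and the summed level was 7.37 and 6.94 against 5.17. Foxd3, a factor of crest cells and of a ventral interneuron class, was at 2.62 and 2.38 against -2.03, a difference of 4.53 (SE 0.53, limma adjusted p = 0.000982). Sox10, the defining factor of migrating crest and Schwann precursors, was at 5.09 and 3.68 against 0.04, and was called. Sox10 was higher on the first motor neuron array than on the second, and both arrays were well above the GFP-off array.

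Sensory neuron genes, which mark the dorsal root ganglia beside the cord, followed the same direction. Of 8, 6 were higher by size and 0 lower, all 6 were called, the median was 2.21, and the summed level was 5.24 and 5.54 against 3.07. Scn10a, a sodium channel of nociceptors, was at 0.69 and 0.72 against -1.79, Prdm12, a nociceptor factor, at 1.79 and 2.48 against -0.34, and P2rx3, an ATP receptor, at -0.19 and 0.11 against -2.35. Calca, a sensory and motor neuropeptide gene, was at -1.27 and -0.28 against -0.63, so the groups overlapped. Prph and Pou4f1 stand in this list as well as in lists above. The part of interneuron, crest and sensory cells in the motor neuron differences was not tested.

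**Figure D3:**
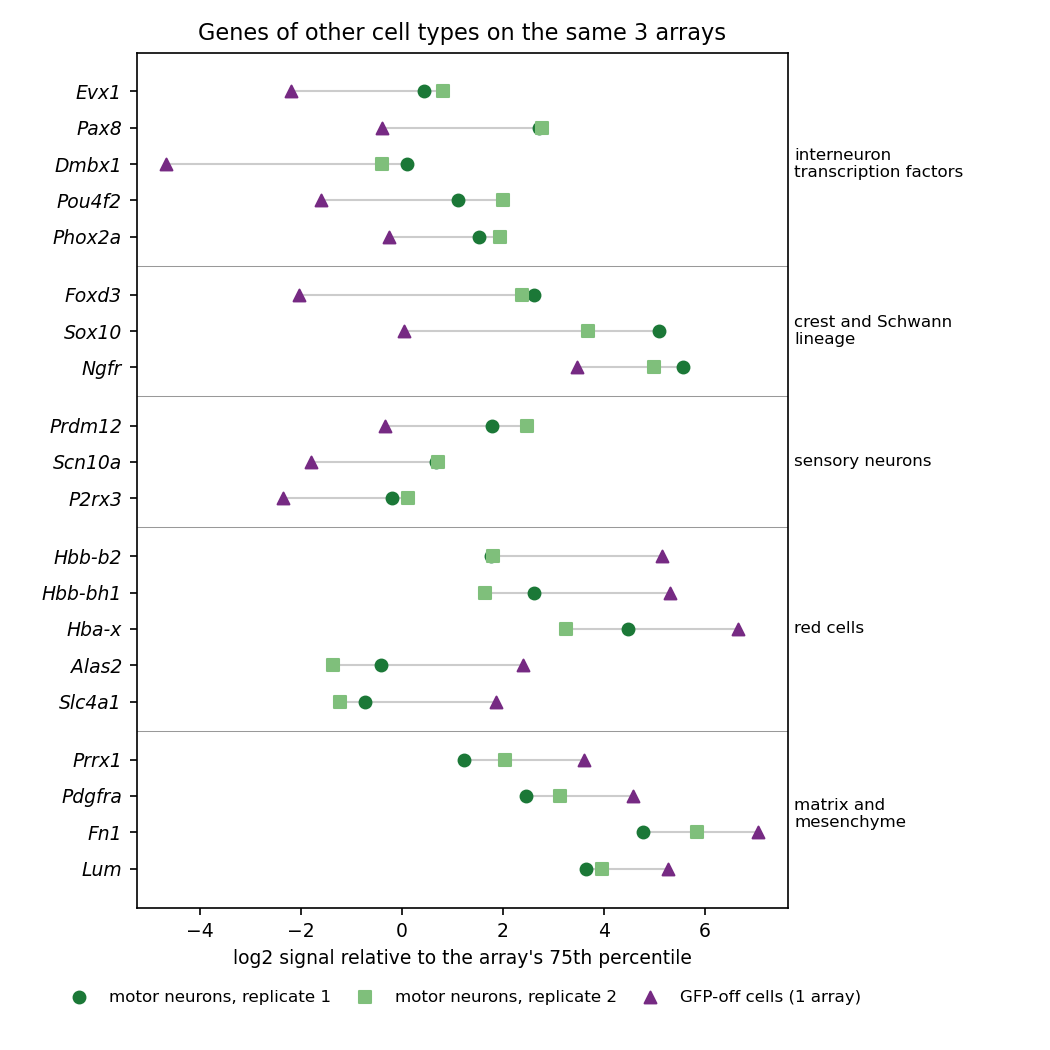
Log2 signal relative to the 75th percentile of each array for genes of interneurons, crest and Schwann lineage, sensory neurons, red cells and mesenchyme; each gene has 1 point per array. The GFP-off array is lowest for the neuronal and crest genes, such as Sox10 at 0.04 against 5.09 and 3.68, and highest for the red cell and mesenchyme genes, such as Alas2 at 2.40 against -0.41 and -1.35.

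Progenitor genes had a median near that of all genes, with members past the size limit on both sides. Of 32, 6 were higher and 3 lower by size, 2 were called higher and 1 lower, and the median was -0.12. Pax7, a factor of dorsal progenitors, was at -2.18 and -2.01 against -0.08 and was called lower (limma adjusted p = 0.0338). Olig1, a factor of the motor neuron progenitor domain, was at -1.98 and -1.68 against -4.01, and Ednrb, an endothelin receptor of crest and radial glia, at 3.93 and 2.91 against 0.18, and both were called higher. Sox2, a factor of all neural progenitors, was at 0.05 and 0.00 against -1.52, a difference of 1.55 that was not called. Dbx1 (-1.43), Gli2 (-1.59) and Id3 (-1.45) lay on the lower side, and Nes, Vim and Slc1a3, genes of radial glia, between -0.32 and -0.01. Fabp7, a fatty acid binding protein of radial glia and of the crest lineage, was at 5.21 and 5.36 against 3.64, higher by size but not called (limma adjusted p = 0.0823).

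Cell cycle genes were mostly lower by a small amount. Of 36, 35 were lower on both motor neuron arrays, but 1 was lower by size, 0 were called, and the median was -0.74. Mki67, the proliferation antigen, was at 4.08 and 4.48 against 4.90, Top2a, a topoisomerase of dividing cells, at 0.46 and 1.49 against 2.13, and Cdk1, the mitotic kinase, at 1.52 and 2.28 against 2.78. Ccnb2, a mitotic cyclin, was at 2.96 and 3.31 against 3.94, and Pcna, the replication clamp, at 3.91 and 4.52 against 5.02. The first motor neuron array was lower than the second in each of these 5 genes, and the list's median was -0.94 on the first and -0.51 on the second. Cdk2 (-1.33), a kinase of S phase entry, and Ccnd2 (-1.25), a G1 cyclin, had the largest differences, and Ccnd1 was the single gene that was higher, by 0.11. The summed level of the list was 8.29 and 8.69 against 9.16.

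The upstream sequences of Cdk1 and Ccnb2 are shown because nearly all genes of the list lay lower and many share a promoter element. They are the 250 bases before the RefSeq start (GRCm38.p6, minus strand), chr10:69352913-69353162 for Cdk1 and chr9:70421555-70421804 for Ccnb2, in the direction of the gene, with CCAAT or its reverse complement ATTGG in capitals.
Cdk1: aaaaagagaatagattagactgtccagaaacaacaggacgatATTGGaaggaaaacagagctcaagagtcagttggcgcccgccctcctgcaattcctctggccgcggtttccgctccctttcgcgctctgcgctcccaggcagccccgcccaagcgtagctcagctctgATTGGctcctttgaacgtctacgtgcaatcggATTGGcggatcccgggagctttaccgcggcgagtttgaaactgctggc
Ccnb2: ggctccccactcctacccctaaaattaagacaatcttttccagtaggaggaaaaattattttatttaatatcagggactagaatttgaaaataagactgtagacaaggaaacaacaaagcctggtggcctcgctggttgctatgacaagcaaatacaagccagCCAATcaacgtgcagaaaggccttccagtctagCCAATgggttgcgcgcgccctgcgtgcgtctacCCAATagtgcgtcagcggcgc
Each held 3 matches. Of the cell cycle genes with a promoter entry, 25 of 30 held CCAAT within 250 bases (83.3%), against 36.4% of the 9872 genes above background on all 3 arrays that have an entry and 34.5% of all 27025 promoters.

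Red cell genes gave the largest lower differences. Of 8 above background on all 3 arrays, 7 were lower by size, 5 were called lower, and the median was -2.82, with a summed level of 10.17 and 8.88 against 11.13. Alas2, the heme synthesis enzyme of red cells, was at -0.41 and -1.35 against 2.40, a difference of -3.28 (SE 0.62, limma adjusted p = 0.00667). Slc4a1, the anion exchanger of the red cell membrane, was at -0.73 and -1.21 against 1.87. Both motor neuron arrays were far below the GFP-off array for each.

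Globin probes agreed in direction but not in size. Hbb-bs was at -2.10 and -1.42 against 2.75, Hbb-b2 at 1.77 and 1.81 against 5.14, and the embryonic Hbb-bh1 at 2.61 and 1.65 against 5.30. Hba-x, the embryonic zeta-globin, was at 4.48 and 3.25 against 6.66, and these 4 were called. Hba-a2, an adult alpha-globin, was at 9.16 and 7.80 against 9.72, and Hba-a1 at 7.64 and 5.97 against 8.90, so the motor neuron arrays still carried bright globin signal and were over a log2 apart. Globin genes of one cluster are near-identical, and how their signal divides between Hbb-bs, Hbb-bt and Hbb-b2, or between Hba-a1 and Hba-a2, is uncertain. Gata1, the red cell transcription factor, was above background on the GFP-off array and at -0.96 there.

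Alas2 and Hba-x are shown with their upstream sequence as genes of the called red cell group. The windows are chrX:150547167-150547416 and chr11:32276350-32276599 (GRCm38.p6, plus strand), the 250 bases before each RefSeq start, with GATAA or its reverse complement TTATC in capitals.
Alas2: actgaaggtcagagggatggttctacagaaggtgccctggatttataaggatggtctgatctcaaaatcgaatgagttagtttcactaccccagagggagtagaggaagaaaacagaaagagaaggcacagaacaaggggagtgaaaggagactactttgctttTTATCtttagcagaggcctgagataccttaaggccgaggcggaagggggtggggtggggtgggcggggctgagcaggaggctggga
Hba-x: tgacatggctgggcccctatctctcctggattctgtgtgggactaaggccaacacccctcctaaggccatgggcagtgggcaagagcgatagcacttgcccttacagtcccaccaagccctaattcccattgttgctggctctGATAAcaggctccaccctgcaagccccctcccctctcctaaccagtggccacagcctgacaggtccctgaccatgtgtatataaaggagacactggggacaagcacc
Each held 1 match. All 5 of the red cell genes with a promoter entry held GATAA, against 14.5% of the promoters of genes above background on all 3 arrays and 23.0% of all promoters.

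Mesenchyme and matrix genes were lower. Of 24, 20 were lower on both motor neuron arrays, 9 by size, 0 were called, and the median was -1.08, with a summed level of 9.86 and 9.82 against 10.88. Prrx1, a mesenchymal homeobox factor, was at 1.23 and 2.03 against 3.60, Pdgfra, a growth factor receptor, at 2.46 and 3.13 against 4.57, and Fn1, encoding fibronectin, at 4.77 and 5.85 against 7.04. Col1a2, a fibrillar collagen, was at 7.84 and 7.46 against 8.69. No motor neuron value reached the GFP-off value in these 4 genes, although the signal stayed bright in both fractions. Col4a1 and Col4a2, of basement membranes, differed by 0.35 and 0.28.

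Vessel and immune genes showed no common direction. Of 15 endothelial and pericyte genes, 2 were higher by size, 0 lower, 1 was called, and the median was 0.30. The called gene was Rgs5, of pericytes, at 0.97 and 1.15 against -1.02. Cdh5, the defining cadherin of endothelium, was at -0.31 and 1.24 against 0.56 and Flt1 at -1.75 and 0.28 against -1.03, so the GFP-off values lay between those of the motor neuron arrays. Of 12 microglial genes, 0 were past the size limit and 0 called, with a median of 0.15. Csf1r, the receptor microglia need, was at 2.95 and 3.15 against 3.36. Its other probes differed by 0.43, with the motor neuron arrays on both sides of the GFP-off value, and by -0.35. Itgam was at 7.75 and 5.57 against 5.54, but its other probes were far dimmer and differed by -0.13 and -0.85.

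Immediate early and stress genes, which respond to dissociation, had a median of -0.40 over 16 genes, with 1 higher and 2 lower by size and 0 called. Egr1, an immediate early transcription factor, was at 1.73 and 2.70 against 3.69 and Fos at 0.61 and 1.37 against 2.06. Hspa1a, an inducible chaperone, was at -1.30 and 1.36 against -0.07, and Hspb1 at 2.36 and 4.69 against 5.01, so the motor neuron arrays were over 2 log2 apart for both chaperones.

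Genes reported as targets of the cluster had a median near that of all genes, with more members lower than higher by size. Of 29, 1 was higher and 4 were lower by size, against 8.96% and 3.64% of all genes. Among the 29, 1 was called, and the median was -0.17, against -0.03 over all genes. The called gene was Cpeb1, a regulator of message polyadenylation, at -2.01 and -2.58 against -4.60. Ndfip1, an adaptor of NEDD4-family ligases, was at 3.25 and 3.10 against 2.39. E2f2 (-1.64), a cell cycle transcription factor, Tgfbr2 (-1.53), the TGF-beta receptor, and Socs1 (-1.46), a brake on cytokine signalling, lay on the lower side. Bcl2l11, the proapoptotic gene Bim, was at -3.81 on the first motor neuron array, below background, and at -2.97 on the second, against -2.33.

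**Figure D4:**
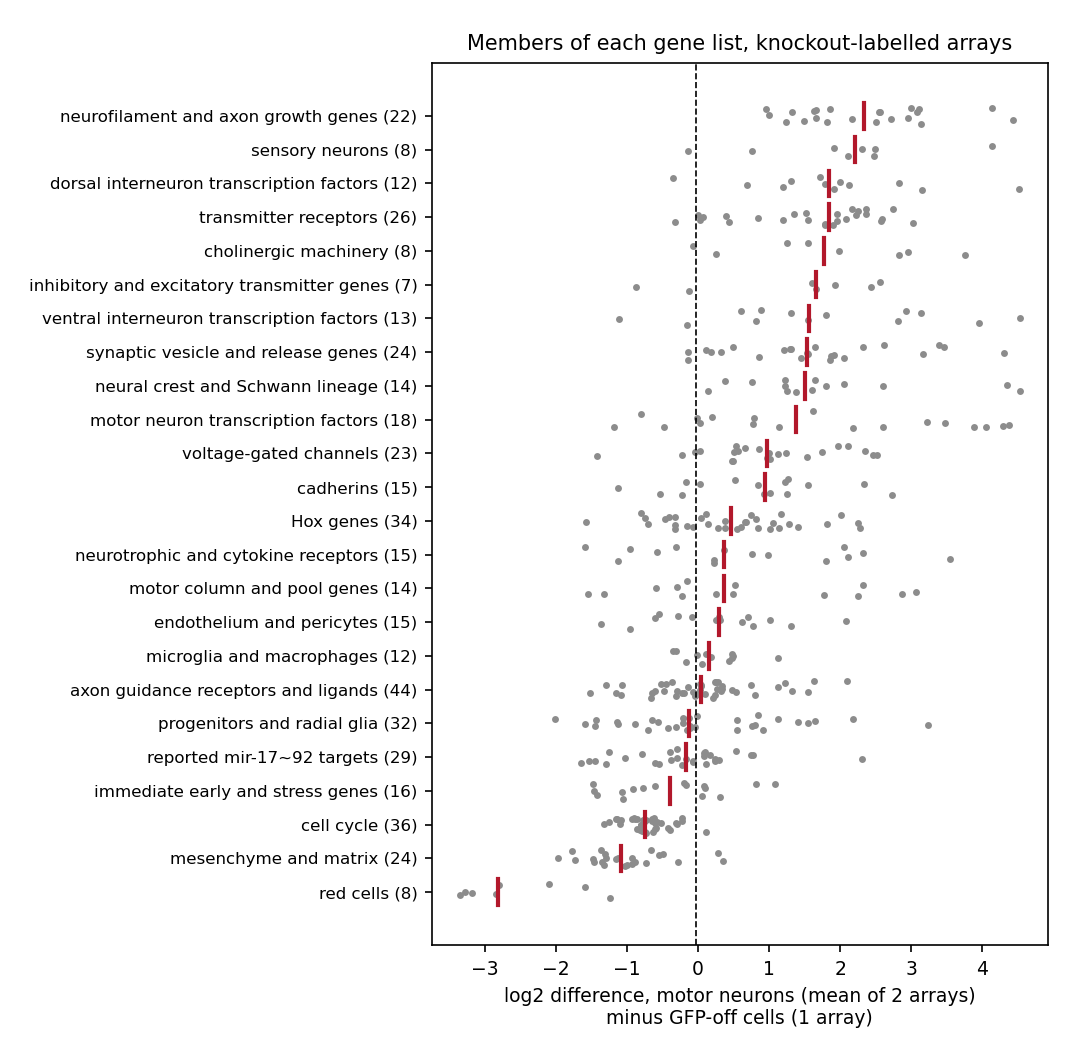
Log2 difference of each member above background on all 3 arrays, 1 point per gene, by gene list, with the number of members in brackets; red bars are list medians and the dashed line the median of all genes (-0.03). Medians run from 2.34 for neurofilament and axon growth genes to -2.82 for red cells.

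Outside the lists, further genes were named by their difference on both arrays. Hmx2, a homeobox factor of inner ear and brain, was at 0.11 and 0.31 against -4.12. Pnoc, the precursor of the neuropeptide nociceptin, was at 2.83 and 2.71 against -1.49. Atp10b, a lipid flippase, was at 1.11 and 0.10 against -3.78. The limma adjusted p was 0.00181 or less for each of the 3 in the restricted fit. On the lower side, Pdzk1ip1, a small membrane protein, was at -1.48 and -1.70 against 1.99, and its second probe was lower by 2.70. Pitx1, a homeobox factor of hindlimb mesenchyme, was at 0.80 on both motor neuron arrays against 4.15. Stfa3, a cystatin-type protease inhibitor, was at -1.79 and -1.34 against 1.40, and Rtl3, a retrotransposon-derived gene, at -2.20 and -2.51 against 0.23. These 4 were called and the motor neuron values lay below the GFP-off value in each.

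Some genes were above background on 1 side only, so their difference has only a lower bound. The bound sets the mean of the bright group against the lowest signal counted as well above background on each array of the other group, or against the probe's own value where that was higher. Of the 15125 genes, 51 were such genes on the motor neuron side, 50 of them with a bound, and 562 on the GFP-off side, 187 with a bound. These counts are not comparable. The motor neuron side required both arrays, with 44.0% of spots above background on the first, and the GFP-off side only its 1 array, with 62.3%. Each gene also passed the filter only through the side where it was high. Nms, encoding neuromedin S, was at -1.32 and -0.38 in motor neurons and at least 14.3-fold higher. Ghsr, the ghrelin receptor, was at -1.10 and -2.44 and at least 9.19-fold higher, and Sp9, a zinc finger factor of developing limb and brain, at -1.23 and -1.78 and at least 10.2-fold higher. Hoxc13 gave the highest bound, 37.5-fold, but its motor neuron arrays were at -2.10 and 2.63. Onecut3, a relative of Onecut2, was at -2.09 and -1.77 and not well above background in GFP-off cells.

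The opposite bounds rest on the single GFP-off array. Pigb, an enzyme of membrane anchor synthesis, was at -0.07 there and not well above background on either motor neuron array, at least 13.9-fold lower in motor neurons. Bhmt, a methyltransferase of liver, was at -0.97 and at least 7.43-fold lower, and Uty, a Y-linked demethylase gene, at -1.02 and at least 7.16-fold lower. On the WT-labelled GFP-off array these 3 probes were at -6.37, -6.15 and -6.37, so the high values were seen on 1 array of the 2 with GFP-off cells.

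The WT-labelled arrays share no array with this comparison, and give the same difference of fractions under the other label. Both WT-labelled motor neuron arrays were dim, with 75th percentiles of 48.5 and 64.5 against 340.5 on the WT-labelled GFP-off array. On them 41.0% and 43.9% of spots cleared background, against 58.9%. Under the knockout label only the first motor neuron array was dim. The part of brightness in differences between the labels was not tested. Across 10060 genes above background on all 6 arrays the differences under the labels had a Pearson r of 0.558, given as a description across genes, which are not independent. Of 867 such genes higher by size here, 77.5% were higher on both WT-labelled motor neuron arrays, against 32.5% of all 10060, and 48.0% by over 1 log2, against 11.8%. Of 306 lower by size, 86.9% were lower on both, against 43.4%, and 47.1% by over 1 log2, against 13.4%. Slc18a3 differed by 3.22 under the WT label, Lhx4 by 3.89, Foxd3 by 4.06, Sox10 by 3.51 and Alas2 by -2.88, each with the same sign as here.

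Some genes had unlike differences under the labels. Prph was at 0.11 and -0.99 on the WT-labelled motor neuron arrays and at -0.55 on the WT-labelled GFP-off array, a difference of 0.11 against 4.13 here. Stmn3 differed by -0.03 against 3.0, and Isl1 by -0.01 against 1.62. Phox2a, a factor of visceral neurons, had opposite signs, at -1.38 under the WT label and 1.99 here. Other genes had the larger difference under the WT label, among them Syt10 (9.66 against 4.31 here), Evx1 (4.88 against 2.81) and Snap25 (3.57 against 1.21). The median over all 10060 genes above background on all 6 arrays was -0.22 under the WT label and -0.02 here. Over the cell cycle genes among them the median was -1.41 and -0.73, and over reported targets of the cluster -0.90 and 0.00. For red cell genes it was -2.99 and -2.82, and for neurofilament and axon genes 1.62 and 2.53. The difference between labels was tested with the limma interaction over 33264 probes, which called 0 (0%), with 2807 at an unadjusted p under 0.05 (8.44%), and for Prph it was 4.02 (limma adjusted p = 0.528). No difference between the labels in a gene named here passed that test.

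**Figure D5:**
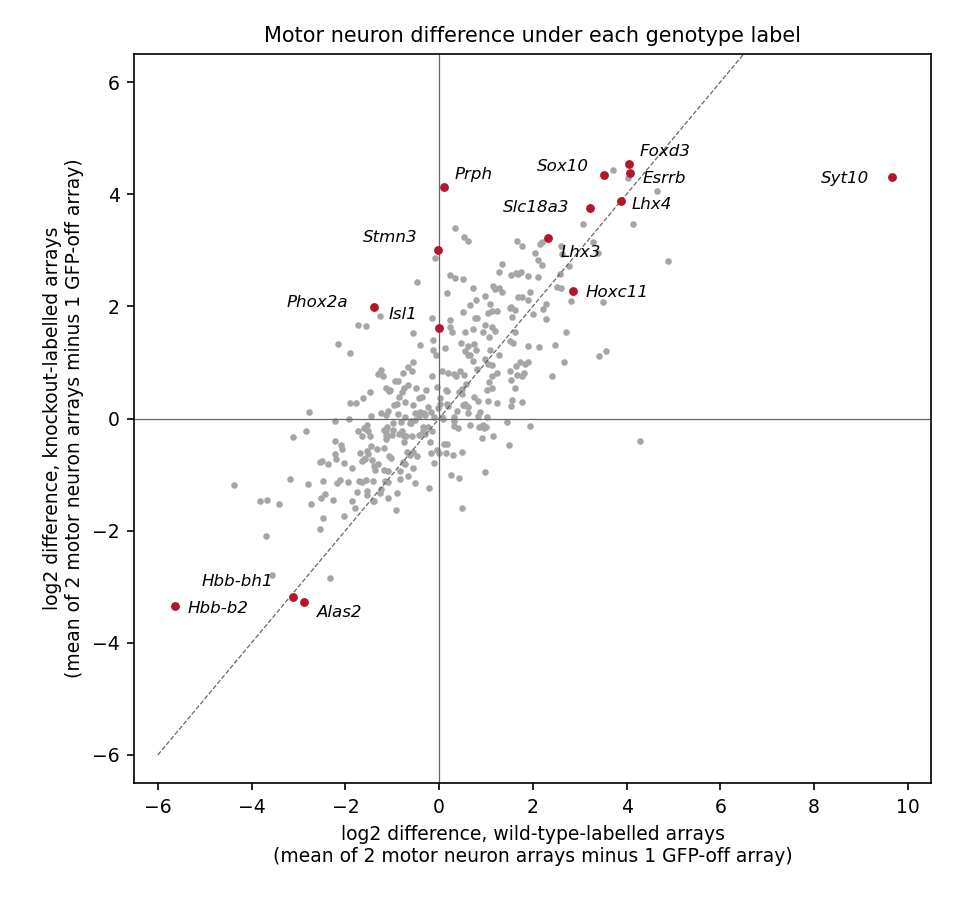
Log2 difference between motor neurons (mean of 2 arrays) and GFP-off cells (1 array) under the WT label (horizontal) and the knockout label (vertical) for the 369 listed genes above background on all 6 arrays; the dashed line marks equal differences. Of these, 283 had the same sign under both labels, and Prph (0.11 and 4.13), Stmn3 (-0.03 and 3.0) and Isl1 (-0.01 and 1.62) lie near 0 on the horizontal axis.

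Second probes gave another reading of the same arrays. Of 2769 genes with over 1 probe above background on all 3 arrays, the differences of the brightest and the next probe had a Pearson r of 0.734 across genes. Where the brightest probe was higher by size, the next was higher on both arrays for 90.7% of 237 genes, and where it was lower by size, the next was lower for 85.5% of 62.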

How the data were processed

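Sorted GFP-on and GFP-off spinal cord cells were measured on 1-colour Agilent arrays, all on 1 slide in 1 scan. Agilent Feature Extraction read the spots, in version 10.5.1.1 per the file headers and 9.1 per the submitters' processing notes. Each deposited scanner file holds an intensity per spot, background-subtracted but unscaled between arrays, and, per the file headers, other values that mark irregular or saturated spots and those well above background. The authors' deposited value table is in log2 and equals the scaled values used here within 0.01. Here unflagged spots of a probe were averaged, log2 taken, and each array's 75th percentile subtracted. Probes were named through RefSeq accessions (assembly GRCm38.p6): 26300 of 55681 matched 19897 genes. The headers name mm9, so no probe coordinates are given.

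The test was limma's (version 3.58.1, R 4.3.3; lmFit, eBayes, Benjamini-Hochberg at 0.05) on 34231 probes, with 1 residual degree of freedom, from the motor neuron arrays; the single GFP-off array was assumed to vary alike. A gene took its brightest kept probe. The steps were tested on simulated data, with changes in a smaller share of probes than the real share of genes past the size limit. There this test recovered none of the changes put in, and the restricted fit called some unchanged probes beside most of the large changes. Calls after adjustment depend on that share, so the simulation does not give the power on the real arrays. With 1 residual degree of freedom, a count of none called does not show that the fractions did not differ. The members and the 25 gene lists were chosen with earlier results of these data known, and the size rule of 1 log2 after it was seen that the test called none. The rule for names took the markers, the 10 genes per direction with the largest difference on both arrays, the 8 per direction with the largest bound, and up to 6 members per list and direction. Other list members, among them Chka, Foxp1, Mki67, Pcna, Top2a and Csf1r, and the genes set against the WT label, were chosen after their values were seen, and some genes the rule takes are not reported here. Alternatives covered scaling, background correction, the filter, the model, probe averaging and each motor neuron array left out. The number of arrays limits the precision.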

Additional observations from a re-analysis of the deposited data

How the results depend on the processing

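No paired analysis was possible because the motor neuron and GFP-off groups share only replicate number 1. The test's count of 0 probes and 0 genes stayed at 0 with quantile normalization, another background correction (normexp), the authors' value table, no filter, a model of 4 group means and, per gene, averaged probes. It became 656 probes and 309 genes with median scaling, and 853 and 550 on probes above background on all 3 arrays. With an intensity trend it became 1842 and 1112. Fits with 1 knockout-labelled motor neuron array left out used the model of 4 group means, whose count with all arrays was 0. Their 1 residual degree of freedom came from the WT-labelled motor neuron arrays. The counts of these fits therefore do not rest on any spread between knockout-labelled arrays. Leaving out 1 motor neuron array gave 149 to 203 probes and 53 to 75 genes. On the probes above background on all 3 arrays, combinations chosen after the data were seen gave 780 and 473 with median scaling, 0 and 0 with quantile normalization (3285 probes and 1964 genes at an unadjusted p under 0.05), 27 and 18 with normexp, 16 and 12 with 4 group means, 1750 and 1109 with a trend, and 18 to 32 probes and 12 to 19 genes with 1 motor neuron array left out. The interaction called 130 probes with median scaling, 1 on probes above background on all 6 arrays, and 0 to 76 with 1 motor neuron array left out. Genes past the size limit numbered 1561, 1008 with normexp, and 1909 to 3095 with 1 motor neuron array alone, most without the second. The causes were not tested.

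Of 1958 values of 179 named genes under an alternative, 28 changed sign, none of a called gene. With normexp these were Bcl2l11 (0.35), Calca (0.18), Ccnd1 (-0.21), Cntfr (-0.21), Col4a1 (-0.00), Col4a2 (-0.08), Colq (0.39), Dcc (-0.13), Lmo4 (-0.24), Mir17hg (-0.34) and Zfhx4 (-0.33). With median scaling they were Slc1a3 (0.04) and Tshz1 (0.04), with quantile normalization Tshz1 (0.04) and Vim (0.04), and with averaged probes Chka (-0.17) and Colq (0.10). With 1 motor neuron array left out, the signs differed between the arrays for Aldh1a2 (-0.54 to 0.08), Calca (-0.64 to 0.36), Cdh5 (-0.86 to 0.68), Colq (-0.47 to 0.33), Flt1 (-0.72 to 1.31), Hspa1a (-1.23 to 1.43), Mir17hg (-0.07 to 0.16), Slc1a3 (-0.10 to 0.08), Tshz1 (-0.10 to 0.07), Vim (-0.22 to 0.01) and Zfhx4 (-0.21 to 0.27). The median difference over all tested probes was -0.18, and 0.241 with normexp. Of 125 list medians under an alternative, 19 moved beyond the spread of the 2 arrays and 6 changed sign, those of column and pool genes (-0.16) and floor plate (-1.33) over all kept members, and those of guidance genes (-0.00), progenitors (0.07), reported targets (0.03) and endothelium (-0.09) on 1 array. With 1 residual degree of freedom, 2 arrays against 1 and a dim first array, small differences and genes near background cannot be read.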
